A study of Mus musculus with 38 samples.

Results

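Of the genes that mark immune cells other than B lymphocytes, 38 were followed in lung and forestomach: genes of T cells, of natural killer (NK) cells and cytotoxic lymphocytes, of macrophages and monocytes, and of neutrophils. They were chosen by name, with earlier results of these data known. Each was represented by the brightest of its probes, taken as the highest mean Cy5 signal over all arrays of both tissues. A probe was matched through its transcript accession for 36 of the 38 genes, of 20018 genes matched on the array; Cd68 and Ly6g were not matched and have no value here. RNA came from male MutaMouse, a transgenic mouse strain whose cells all carry a lacZ vector for mutation assays, aged about 10 weeks. The mice were gavaged every day for 28 days with olive oil alone (D0) or with dibenz(ah)anthracene (DBahA), a polycyclic aromatic hydrocarbon, in olive oil. Daily doses per kg of body weight were 6.25 mg in D1, 12.5 mg in D2 and 25 mg in D3, and the organs were collected 72 h later than the final gavage. The lung sample was a section of the right lobe. Lung was measured in 5, 5, 4 and 5 mice of D0 to D3 and forestomach in 5, 5, 4 and 4, mostly from the same mice. The labels name 2 of the D3 forestomach arrays as mouse 18, on slides 4 and 5, and these were averaged; whether both came from 1 mouse was not settled, so D3 may hold 5 forestomachs. Their values differed in places, as for Marco (1.16 and -0.14). Values are log2 ratios of tissue RNA (Cy5) to a common reference RNA pooled from mouse cell lines (Cy3), so a ratio of 0 means a signal like that of the reference and says nothing about the level of one gene against another.

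T cells recognise peptides through a receptor whose signal passes through the CD3 chains to the kinases Lck and Zap70, with CD4 or CD8 as coreceptor. NK cells and cytotoxic T cells kill by releasing perforin and granzymes from granules. Macrophages engulf particles and are abundant in the alveoli of the lung, while neutrophils are short-lived phagocytes that circulate in blood and are recruited to inflamed tissue.

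The tissues were as labelled: 10 of 10 genes of lung epithelium and vessels were higher in lung at D0, and 6 of 6 genes of squamous epithelium were higher in forestomach. Other tissue was present in variable amounts. The mean log2 shift from D0 of 9 glandular stomach genes ran from -3.66 to 2.87 among forestomach mice, that of 5 fat genes in forestomach from -1.04 to 2.65, and that of 6 heart muscle genes in lung from -0.95 to 2.22. The bulk RNA of a tissue slice cannot tell fewer cells of a type from less RNA per cell. A probe was called when it differed by 1.5-fold or more with an adjusted p (limma, Benjamini-Hochberg over all 55681 probes of a comparison) of 0.05 or less.

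The promoters of 4 genes on which the tissue results below turn are shown here, each with the 250 bases before the RefSeq start on the strand of the gene (RefSeq, assembly GRCm38.p6). Gzma had the largest measured tissue difference of the members, Marco and Lyz2 are macrophage genes, and S100a8 is a neutrophil gene. Capitals mark a match, on either strand, to GAGGAAG, a sequence bound by the myeloid factor PU.1, or to TGTGGT, a sequence bound by RUNX factors. Each of these 4 windows held 1 match, to 1 of the motifs, so no matches overlap in them.
Gzma, chr13:113100982-113101231, minus strand: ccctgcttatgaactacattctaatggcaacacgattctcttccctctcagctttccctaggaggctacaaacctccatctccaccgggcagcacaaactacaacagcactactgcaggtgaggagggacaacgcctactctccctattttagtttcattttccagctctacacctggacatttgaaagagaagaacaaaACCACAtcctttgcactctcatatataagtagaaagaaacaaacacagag
Marco, chr1:120505025-120505274, minus strand: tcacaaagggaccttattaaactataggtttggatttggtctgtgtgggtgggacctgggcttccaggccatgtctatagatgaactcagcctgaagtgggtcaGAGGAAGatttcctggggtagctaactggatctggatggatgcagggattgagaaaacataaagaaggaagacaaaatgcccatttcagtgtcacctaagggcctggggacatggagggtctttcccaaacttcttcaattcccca
Lyz2, chr10:117282273-117282522, minus strand: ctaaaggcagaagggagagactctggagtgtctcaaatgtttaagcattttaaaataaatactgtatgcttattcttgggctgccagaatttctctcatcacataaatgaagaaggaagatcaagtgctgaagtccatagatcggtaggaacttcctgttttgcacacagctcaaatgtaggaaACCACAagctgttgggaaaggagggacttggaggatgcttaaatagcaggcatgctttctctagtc
S100a8, chr3:90668821-90669070, plus strand: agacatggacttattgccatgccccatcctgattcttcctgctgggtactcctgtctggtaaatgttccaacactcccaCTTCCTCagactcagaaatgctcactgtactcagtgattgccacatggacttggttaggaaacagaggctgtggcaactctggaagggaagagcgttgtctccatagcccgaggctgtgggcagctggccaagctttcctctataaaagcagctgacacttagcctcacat

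The promoter table held 36 starts of 30 members. Some members have several starts, whose windows overlap for Ncr1 and for Ly6g. GAGGAAG was present in 13 of these 36 windows (11 of the 30 members) and in 10.6% of all 32851 windows of the same length. TGTGGT was present in 11 of the 36 (10 members) and in 14% of all windows, among them those of Gzma, Gzmb, Prf1 and Nkg7. TNGCGTG, the sequence bound by the aryl hydrocarbon receptor with its partner ARNT, was present in 1 of the 36, a start of Foxp3, and in 4.1% of all windows. These are matches of letters in a short window, with no measurement of binding.

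The first comparison asked how the immune cell genes differed between the lung and the forestomach of vehicle mice. In lung 23 of the 36 members were called higher and 0 lower, against 8.62% of all probes called higher in lung and 16.2% called in either direction. By the brightest probe of each gene, as the members were read, 14.8% of the 20018 genes were called higher in lung and 12.8% lower. The median log2 difference (lung minus forestomach) was 0.93 over the members and -0.01 over all probes. By role, 10 of 10 macrophage and monocyte genes, 3 of 5 neutrophil genes, 4 of 8 NK and cytotoxic genes, 3 of 7 genes of the T cell receptor complex and coreceptors, and 3 of 6 genes of T cell signalling, homing and regulation were called. The groups of 5 mice did not overlap for 25 members, 22 of them called, and for 29.3% of all genes. Among the 18 mice with both tissues, vehicle and treated together, 24 members were higher in the lung than in the forestomach of every mouse with both values, as were 17.5% of all genes.

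**Figure D1:**
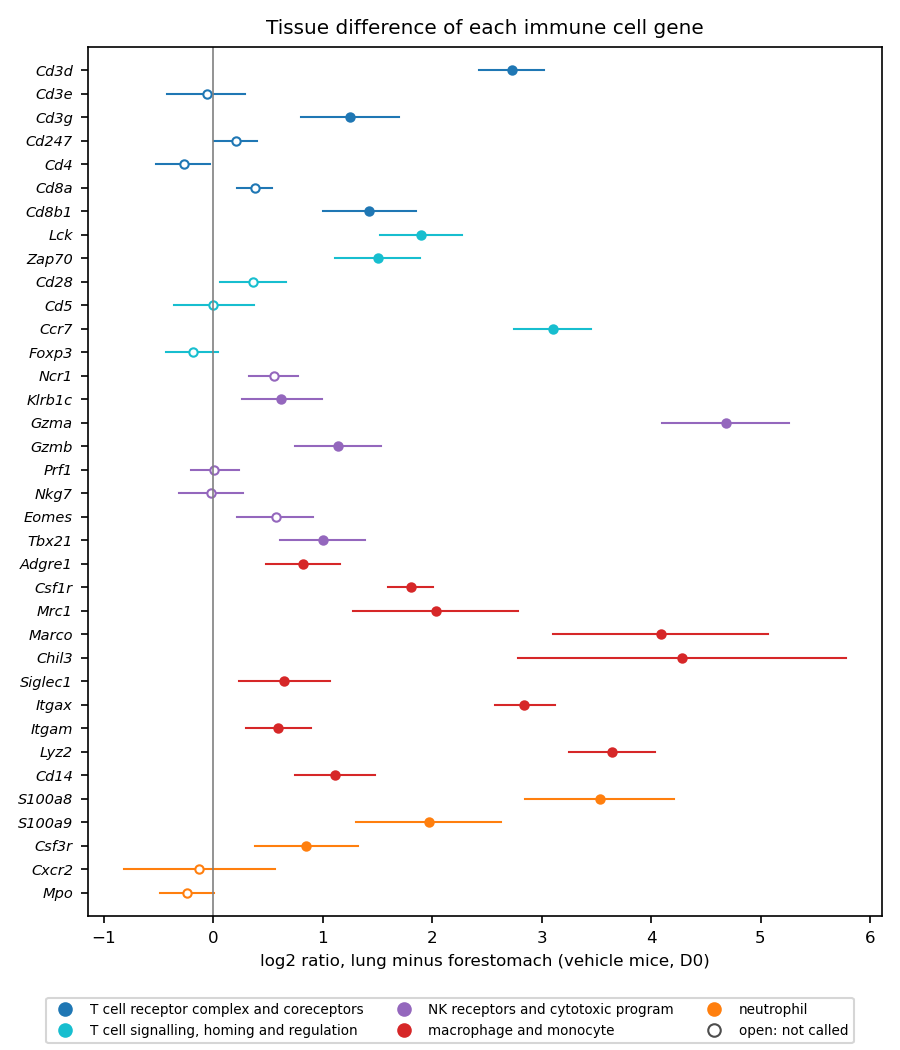
Log2 ratio in lung minus that in forestomach of vehicle mice (x axis) for each of the 36 members (y axis, coloured by role), with 95% confidence intervals. Filled points are called. All 10 macrophage and monocyte genes lie to the right of 0, whereas the T cell, NK and neutrophil lists each hold genes near 0 and genes far above it.

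The CD3 chains, which carry the signal of the T cell receptor, gave unlike tissue contrasts. Cd3d had log2 ratios of 2.62, 2.48, 2.43, 2.32 and 2.45 in the lungs of vehicle mice 1 to 5 and -0.13, -0.23, -0.24, -0.58 and -0.14 in their forestomachs, a difference of 2.73 (SE 0.14, adjusted p = 6.44e-17). Cd3d was not well above background on any of the 19 forestomach arrays, so the contrast is a bound, and lung was at least 5.29-fold higher. Cd3g, the neighbouring chain gene, had -0.57, -0.59, -0.44, -0.74 and -0.66 in lung and -2.06, -2.58, -1.44, -1.17 and -2.01 in forestomach, 2.38-fold higher in lung (adjusted p = 3.2e-05), with 1 of the 5 forestomach arrays well above background. For Cd3e, in contrast, the values were -0.52, -0.37, 0.09, -0.41 and -0.48 in lung and -0.49, -0.55, 0.18, 0.08 and -0.60 in forestomach. These ranges overlapped, and the difference was -0.06 with a 95% interval from -0.42 to 0.29. Cd3e, read by 1 probe, was well above background on all 19 arrays of each tissue, unlike Cd3d and Cd3g in forestomach. Whether its forestomach signal came from T cells was not tested. Cd247, which encodes the zeta chain, was not well above background on any array of either tissue, and its difference of 0.21 was not called.

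Among the coreceptors, Cd8b1 (the CD8 beta chain) was called at 2.68-fold higher in lung (adjusted p = 1.65e-06), with lung values of 2.42, 1.02, 0.70, 0.73 and 0.70. Mouse 1 stood above the other lungs, and forestomach values lay from -0.58 to -0.20 with no vehicle array well above background, which makes the contrast at least 1.98-fold. Cd8a (the CD8 alpha chain) was higher by 0.38 in lung with groups that did not overlap and an adjusted p of 0.000235, but its fold of 1.3 was under the threshold. Its level was well above background on 2 of 5 vehicle lung arrays and 0 of 5 forestomach arrays. Cd4 (the coreceptor of helper T cells), well above background on all 38 arrays, had 0.47, 0.41, 0.35, 0.32 and 0.54 in lung and 0.90, 0.18, 1.06, 0.81 and 0.52 in forestomach, a difference of -0.27 (95% interval -0.52 to -0.03) that was not called, and it was lower in lung in 15 of the 18 mice with both tissues.

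The kinase Lck, which phosphorylates the CD3 chains, had -0.15, -0.64, 0.08, -0.95 and -0.75 in lung and -2.84, -2.41, -2.05, -2.04 and -2.53 in forestomach, 3.72-fold higher in lung (adjusted p = 3.27e-10). Zap70, the kinase recruited to phosphorylated chains, was 2.83-fold higher (adjusted p = 1.18e-07). Ccr7, the chemokine receptor that guides lymphocytes and dendritic cells to lymph nodes, was well above background on 1 of 5 vehicle forestomach arrays. Its values were 3.26, 2.71, 3.35, 2.80 and 2.37 in lung and -0.21, -0.11, -0.40, 0.06 and -0.38 in forestomach, 8.6-fold higher in lung (SE of the log2 difference 0.17, adjusted p = 2.67e-16). All values of these 3 genes were higher in lung than in forestomach. The other 3 were not called: Cd28, a costimulatory receptor, differed by 0.36 (95% interval 0.06 to 0.66), Cd5, a receptor that dampens T cell signals, by 0.00 (-0.36 to 0.37), and Foxp3, the factor that defines regulatory T cells, by -0.19 (-0.43 to 0.04). Foxp3 was well above background on 9 lung and 8 forestomach arrays of 19 each.

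Gzma, a granule protease of NK cells and cytotoxic T cells, had the largest measured difference of the members, against a forestomach signal well above background on 1 of 5 vehicle arrays. Its log2 ratios were 5.15, 4.50, 4.43, 3.88 and 4.70 in vehicle lung and -0.17, -0.20, -0.21, -0.21 and 0.02 in vehicle forestomach, 25.7-fold apart (log2 difference 4.68, SE 0.29, adjusted p = 3.58e-15). Every lung of every dose group lay at 3.20 or above, and every forestomach at 1.19 or below. Gzmb, a second granule protease, was higher by 1.14 (adjusted p = 1.62e-05) and Tbx21, the transcription factor T-bet, by 1.00 (adjusted p = 9.99e-05). Neither was well above background in any vehicle forestomach, which sets bounds of at least 1.68-fold and at least 1.65-fold. Klrb1c, an NK receptor gene, was higher by 0.62 (adjusted p = 0.00692), at least 1.16-fold. It was well above background on 3 of 5 vehicle lung arrays and lost its call when vehicle lung 1, lung 2 or forestomach 5 was left out (0.49, 0.54 and 0.58, in that order).

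The remaining 4 cytotoxic genes were not called. Ncr1, the NK receptor NKp46, and Eomes, a transcription factor of NK and memory T cells, had adjusted p values of 0.000124 and 0.01 with folds of 1.46 and 1.48. Both had groups that did not overlap, and both were well above background on 3 of 5 vehicle lung arrays and 0 of 5 forestomach arrays. Prf1, which encodes perforin, differed by 0.01 (95% interval -0.20 to 0.23), with 0.10, -0.35, -0.22, -0.40 and -0.14 in lung and -0.34, -0.16, -0.09, -0.28 and -0.21 in forestomach. Nkg7, a granule membrane protein, differed by -0.02 (-0.31 to 0.27) by its brightest probe, well above background on all 38 arrays. Its other probe gave 1.60 and was called. Thus the granule genes Gzma and Gzmb were higher in lung, whereas the intervals for Prf1 and for the brightest Nkg7 probe lay within a 1.5-fold difference in either direction.

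By their brightest probes, all 10 measured macrophage and monocyte genes were higher in lung. Marco, a scavenger receptor of alveolar macrophages, had 4.50, 4.36, 5.28, 5.26 and 2.68 in vehicle lung and 0.00, 1.54, 0.04, -0.06 and 0.14 in forestomach (17-fold, adjusted p = 2.44e-08). Mouse 5 was low among the lungs and mouse 2 high among the forestomachs, 2 of which were well above background, but the groups did not overlap. Chil3, a secreted chitinase-like protein of alveolar macrophages, had 3.63, 1.76, 2.12, 1.81 and 0.82 in lung and 0.02, -4.08, -2.40, -1.22 and -3.58 in forestomach (19.4-fold, adjusted p = 2.02e-05). Among the vehicle forestomachs mouse 2 was lowest and mouse 1 highest, and the 95% interval for the log2 difference ran from 2.78 to 5.78. Lyz2, lysozyme M of macrophages and neutrophils and also of alveolar type 2 cells, had 3.98, 3.84, 3.64, 3.96 and 3.63 in lung and -0.17, 0.94, 0.22, -0.15 and -0.01 in forestomach (12.5-fold, adjusted p = 1.03e-16).

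Itgax, the integrin CD11c of alveolar macrophages and dendritic cells, had the smallest adjusted p of all members. Its values were 2.70, 2.63, 2.88, 2.57 and 2.32 in lung and 0.24, -0.54, -0.23, -0.08 and -0.51 in forestomach, 7.17-fold apart (adjusted p = 5.27e-18). The mannose receptor Mrc1 was 4.08-fold higher (adjusted p = 5.1e-05), and its fit used 4 forestomach vehicle mice since the spot of mouse 4 was marked as an outlier and left out. Csf1r, the receptor for the growth factor on which macrophages depend, was 3.5-fold higher (adjusted p = 4.29e-16), and Cd14, a lipopolysaccharide coreceptor, 2.16-fold (adjusted p = 7.59e-06). Differences were smaller for Adgre1, the macrophage marker F4/80 (0.82, adjusted p = 0.000219), Siglec1, the sialic acid receptor CD169 (0.65, 0.0166), and Itgam, the integrin CD11b (0.59, 0.00179). Siglec1, well above background on 1 of 5 vehicle forestomach arrays, was the only called member whose groups overlapped. It lost its call without vehicle lung 1 or 2 or forestomach 4 (0.52, 0.58 and 0.55), and Itgam lost its call without lung 1 or forestomach 2 (0.50 and 0.46).

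Of the neutrophil genes, S100a8 had 1.40, 1.78, 1.36, 2.89 and 1.42 in vehicle lung and -1.79, -2.60, -1.50, -1.04 and -1.87 in forestomach, 11.6-fold higher in lung (SE 0.34, adjusted p = 2.14e-10). Its partner S100a9, with which it forms the calcium-binding complex calprotectin, had 6.14, 5.87, 6.04, 7.16 and 6.42 in lung and 4.43, 5.01, 5.03, 3.97 and 3.36 in forestomach (3.91-fold, adjusted p = 1.16e-05). Both are also known from squamous epithelium. S100a9 was well above background on all 19 forestomach arrays, S100a8 on 9 of 19 and on 1 of the 5 vehicle ones. Csf3r, the receptor for granulocyte colony-stimulating factor, was 1.81-fold higher (adjusted p = 0.00444). Its 1 probe gave the highest mean Cy5 signal of the members in both tissues. Whether its forestomach signal came from neutrophils was not tested. Cxcr2, a receptor for neutrophil-attracting chemokines, differed by -0.13 (95% interval -0.82 to 0.56) and Mpo, the myeloperoxidase made by neutrophil precursors in bone marrow, by -0.24 (-0.49 to 0.01); neither was called. Mpo was lower in the lung in 18 of 18 mice and well above background on 7 of 19 arrays in each tissue. Cxcr2 was higher in the lung in 11 of 18 mice. Thus S100a8, S100a9 and Csf3r were called higher in lung, and Cxcr2 and Mpo were not called in either direction.

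Several members had more than 1 probe, and the probes did not always give the same call. Of 10 such members, all probes were called higher in lung for 1 (Zap70), none for 3 (Cd4, Cd8a and Eomes), and only some for 6. These 6 were Klrb1c, Nkg7, Adgre1, Csf1r, Siglec1 and Itgam. For Csf1r the 3 probes ranged from -0.10 to 1.81 and for Itgam from -0.23 to 0.59, with the brightest probe at the top in both cases. The brightest probe also gave the highest value for Cd8a, Zap70, Klrb1c, Eomes, Adgre1 and Siglec1, and the lowest for Cd4 and Nkg7. The other probe gave 0.09 for Adgre1 and 0.18 for Siglec1. Counting a gene when any of its probes was called gave 24 members in place of 23.

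Within each of the 4 slides that held both tissues at D0, the lung minus forestomach difference ran from 4.09 to 5.00 for Gzma, from 2.66 to 2.90 for Cd3d, from 2.90 to 4.11 for Lyz2 and from 2.85 to 4.38 for S100a8.

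Further genes of the same cell types gave mixed counts in the same comparison. Called higher in lung were 9 of 18 other T cell genes (1 lower), 4 of 12 other NK and cytotoxic genes (0 lower), 8 of 18 other macrophage and monocyte genes (1 lower) and 4 of 12 other neutrophil genes (0 lower). Of genes shared by all leukocytes 9 of 10 were higher, with a median log2 difference of 1.82, as were 7 of 11 B lymphocyte genes (median 1.58) and 4 of 7 measured dendritic cell genes (median 0.73). Red blood cell genes were also higher in 4 of 5 cases (median 1.39), and the part of blood left in the tissue in these results was not tested.

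**Figure D2:**
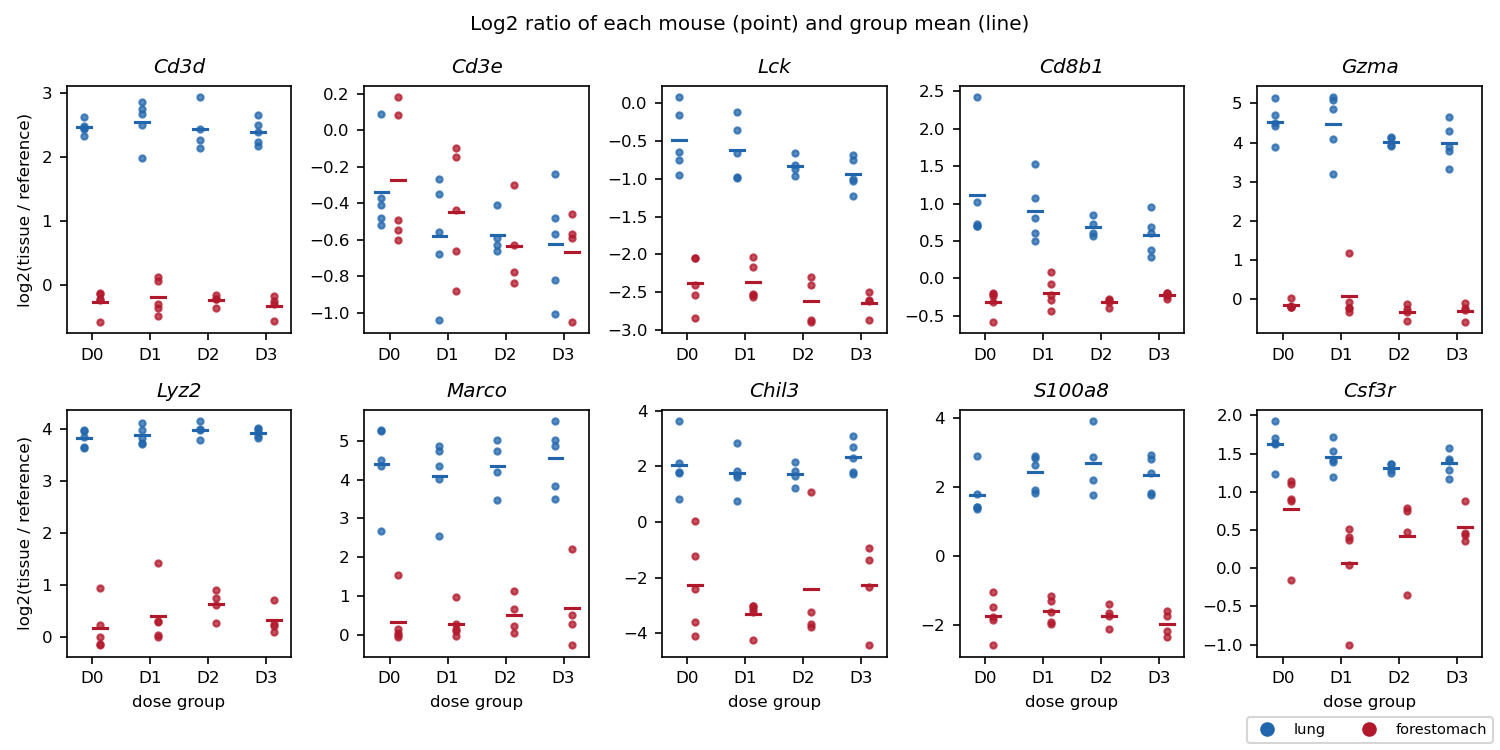
Log2 ratio of tissue to reference RNA (y axis) by dose group (x axis) for 10 members, with each mouse as a point and group means as lines, lung in blue and forestomach in red. Lung and forestomach points do not overlap at any dose for Cd3d, Gzma, Lyz2 and S100a8 and overlap for Cd3e, while the points of the dose groups overlap within each tissue.

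The next comparisons set each dose of DBahA against vehicle. In lung 0 of the 36 members were called at D1, D2 or D3, where 0.14%, 0.264% and 0.639% of all probes were called. At an unadjusted p under 0.05 the limma counts were 0, 4 and 5 of 36, where 6.53%, 8.07% and 11.3% of all probes had such a p, and those of the Fs-type statistic, run as a second method with 0 members called as well, were 3, 3 and 5. In forestomach 0 of 36 members were called at any dose and 0% of all probes. The unadjusted counts there were 3, 0 and 0 by either method, and 4.31%, 3.11% and 3.56% of all probes had such a p with limma. The median log2 difference of the members from D0 was -0.02, -0.06 and -0.07 in lung and 0.02, -0.01 and -0.02 in forestomach, where the median over all probes was 0.00 in each. With median centring in place of loess these turned to 0.18, 0.26 and 0.19 in lung and 0.05, 0.18 and 0.22 in forestomach, with medians over all probes from 0.02 to 0.04. At D3 the member median was -0.05 in lung and -0.04 in forestomach with background correction. It was -0.15 and -0.03 with the Feature Extraction log ratio. The authors' values gave -0.07 and -0.04, and scaling between arrays gave -0.07 and -0.02. The D0 mice are shared by the 3 doses of a tissue. Without vehicle lung 1 the member medians in lung with loess were 0.06, 0 and -0.01 at D1, D2 and D3. Without vehicle lung 4 they were -0.08, -0.07 and -0.09.

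The 95% intervals cover the spread between mice under loess scaling, and another scaling can move a value out of them, as it did for Csf1r in lung at D3 (0.30 with median centring). At D3 in lung the interval lay within a 1.5-fold change in either direction for 21 of 36 members and within a 2-fold change for 31. In forestomach it was 22 and 32. The widest intervals at D3 were those of Marco in lung (-0.89 to 1.16) and Chil3 in forestomach (-2.10 to 2.05).

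**Figure D3:**
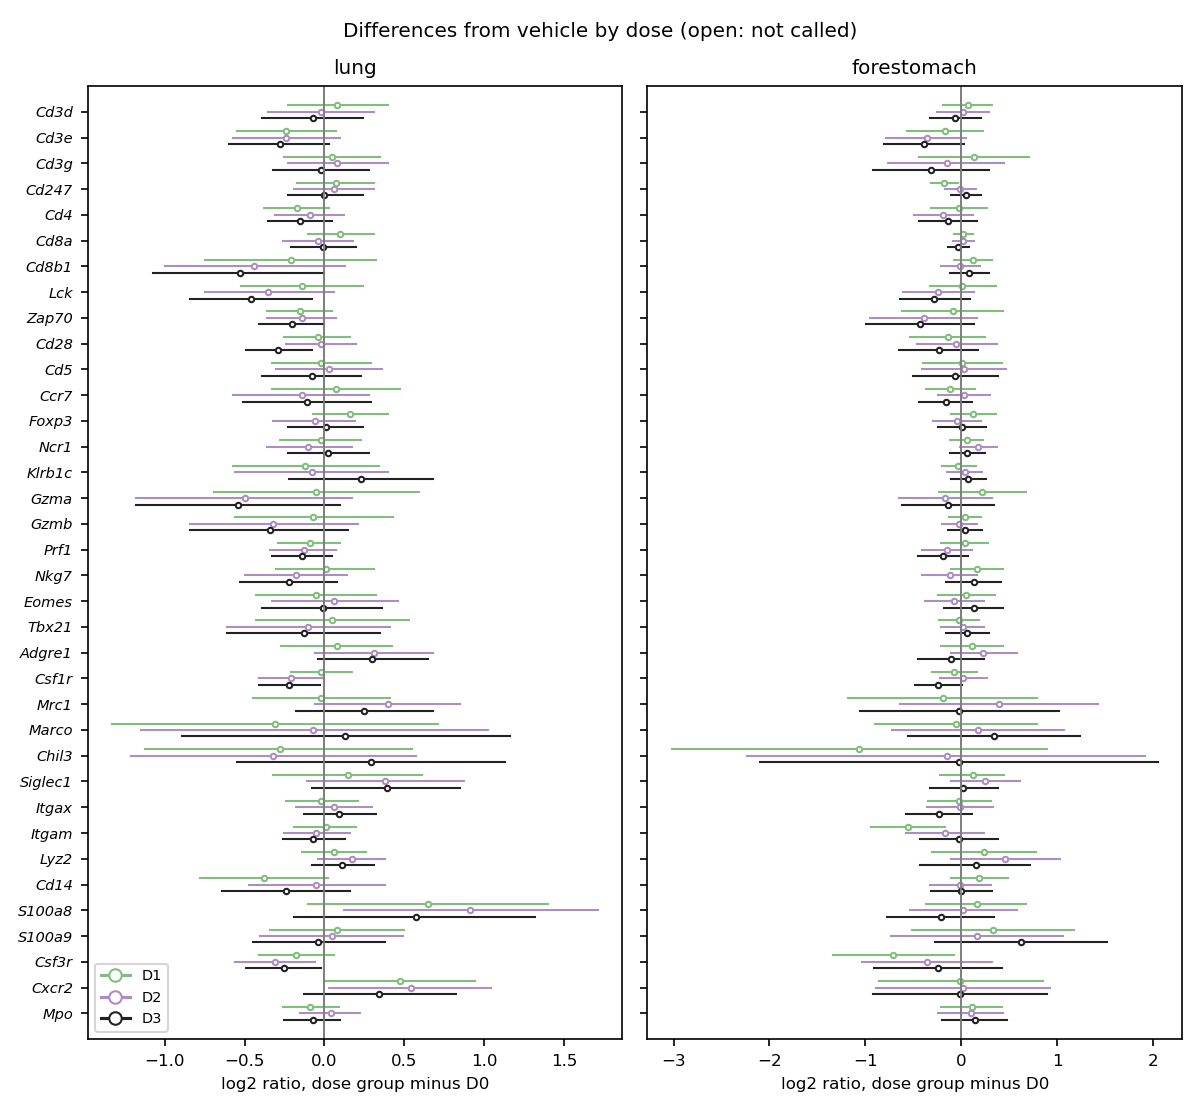
Log2 ratio of each dose group minus D0 (x axis) for each member (y axis) in lung (left) and forestomach (right), with 95% confidence intervals and D1, D2 and D3 in different colours. All points are open, as none was called, and the x axes differ in range.

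Among the lung T cell genes, 11 of 13 had a negative log2 difference at D3, from -0.53 for Cd8b1 to 0.01 for Foxp3, with none called. The 3 with an unadjusted p under 0.05 were Lck, Cd28 and Zap70. Lck had -0.15, -0.64, 0.08, -0.95 and -0.75 at D0, -0.97, -0.99, -0.66, -0.11 and -0.35 at D1, -0.66, -0.87, -0.96 and -0.81 at D2 and -1.03, -0.75, -0.68, -1.23 and -1.0 at D3. All 5 D3 values lay below the D0 mean but overlapped the D0 range (difference -0.46, 95% interval -0.84 to -0.08, adjusted p = 0.313). Cd28 had -0.90, -1.11, -0.68, -1.20 and -1.20 at D0 and -1.39, -1.13, -1.23, -1.25 and -1.54 at D3 (-0.29, adjusted p = 0.207), the smallest adjusted p of any member at that dose. Zap70 differed by -0.20 (adjusted p = 0.443). These differences were lost or changed sign with arrays centred on their median in place of loess. There 10 of the 13 T cell genes had a positive D3 difference, and the differences of Lck and Cd28 came to 0.00 and that of Zap70 to 0.21.

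Cd8b1 in lung was 2.42 in vehicle mouse 1 and from 0.70 to 1.02 in the other vehicle mice, against 0.96, 0.68, 0.28, 0.38 and 0.61 at D3. The difference of -0.53 (adjusted p = 0.447) came to -0.21 without that mouse. Cd8a, which encodes the other chain of the same coreceptor, had 0.69, 0.32, 0.33, 0.16 and 0.21 at D0 and 0.37, 0.41, 0.36, 0.10 and 0.41 at D3, a difference of -0.01. At D1 Cd4 was the 1 member in any dose comparison whose groups did not overlap, as was so for 1.93% of all genes in that comparison, with 0.47, 0.41, 0.35, 0.32 and 0.54 at D0 and 0.31, 0.13, 0.25, 0.23 and 0.31 at D1 (-0.17, adjusted p = 0.82). The other Cd4 probe differed by 0.00 in that comparison. The mean shift of the B lymphocyte genes at D3 in the same lungs was -0.05 ± 0.22 (SD, n = 5).

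The cytotoxic genes of lung had 6 of 8 negative differences at D3. Gzma had 5.15, 4.50, 4.43, 3.88 and 4.70 at D0, 4.85, 4.09, 3.20, 5.16 and 5.10 at D1, 4.14, 3.94, 4.11 and 3.91 at D2 and 4.30, 4.65, 3.79, 3.88 and 3.32 at D3. The D3 values overlapped those of D0, and the difference of -0.54 had a 95% interval from -1.18 to 0.10 (adjusted p = 0.543). Gzmb differed by -0.34 (adjusted p = 0.65), Nkg7 by -0.22 and Prf1 by -0.14, whereas Klrb1c differed by 0.23. For each of these 5 genes the D3 values overlapped those of D0. The other probe of Klrb1c gave -0.06 and that of Nkg7 -0.04. With median centring 4 of the 8 differences were positive.

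Of the lung macrophage and monocyte genes, 7 of 10 had a positive difference at D3, and 10 of 10 with median centring. The largest were Siglec1 (0.39, 95% interval -0.08 to 0.85) and Adgre1 (0.30, -0.04 to 0.65). Their other probes gave -0.06 for Siglec1 and 0.22 for Adgre1. Siglec1 had 1.38, 1.15, 0.72, 0.47 and 0.63 at D0 and 1.60, 1.32, 0.93, 0.62 and 1.81 at D3, and the groups overlapped. By its brightest probe Csf1r went the other way, with 1.43, 1.01, 0.96, 0.88 and 0.99 at D0 and 0.86, 0.84, 0.87, 0.67 and 0.93 at D3. All 5 D3 values lay below the D0 mean and 4 of them below every vehicle value (-0.22, 95% interval -0.41 to -0.03, adjusted p = 0.355). With median centring the Csf1r difference was 0.30. The other Csf1r probes were higher at D3 with loess, by 0.18 and 0.09, and were not called. The alveolar macrophage gene Marco ran from 2.68 to 5.28 at D0 and from 3.51 to 5.52 at D3, and its mean difference was 0.13.

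The differences of the neutrophil genes in lung had both signs, and none was called. S100a8 had 1.40, 1.78, 1.36, 2.89 and 1.42 at D0, 2.64, 2.90, 1.83, 1.89 and 2.84 at D1, 2.86, 3.91, 2.20 and 1.77 at D2 and 2.40, 2.80, 2.92, 1.82 and 1.76 at D3. Vehicle mouse 4, at 2.89, lay within the range of each treated group. The differences were 0.65, 0.91 and 0.57 with adjusted p values of 0.813, 0.542 and 0.613. The D2 difference was 1.19 without D0 mouse 4, 1.22 without D2 mouse 15 and 0.51 without D2 mouse 12. Cxcr2 had differences of 0.47, 0.54 and 0.34 with adjusted p values of 0.769, 0.58 and 0.632. S100a9, the partner of S100a8, differed by 0.08, 0.05 and -0.04, and Csf3r by -0.18, -0.31 and -0.25. The red blood cell genes shifted by -0.31 ± 0.15 (SD, n = 5) at D3 in the same lungs, and the part of blood content in these values was not tested.

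In forestomach the differences at D3 ran from -0.43 for Zap70 to 0.62 for S100a9, each with an adjusted p of 1. The 3 members with an unadjusted p under 0.05 were all lower at D1: Cd247 (-0.18), Itgam (-0.55) and Csf3r (-0.71). Cd247 was not well above background on any forestomach array, and the other Itgam probes differed by -0.10 and -0.15. Csf3r had 1.10, -0.16, 0.88, 1.14 and 0.91 at D0 and -1.01, 0.04, 0.51, 0.41 and 0.37 at D1, and Itgam had 0.88, 0.09, 0.81, 0.76 and 0.64 and -0.46, 0.12, 0.31, 0.14 and 0.31. In both genes mouse 6 was the lowest at D1 and mouse 2 the lowest at D0. The glandular stomach genes shifted by 1.23 in mouse 6 and by -3.44 in mouse 2, and their part in these values was not tested. At D3 Csf3r differed by -0.24 and Itgam by -0.02.

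Chil3 showed the widest spread of any member, with a within-group SD of 1.60 log2 units in forestomach against 0.74 in lung. Its forestomach values were 0.02, -4.08, -2.40, -1.22 and -3.58 at D0, -4.22, -3.23, -3.03, -3.11 and -3.0 at D1, -3.24, -3.77, 1.07 and -3.67 at D2 and -4.43, -0.95, -2.34 and -1.37 at D3. Mice 1 and 13 alone reached the reference level or above. Both had glandular stomach shifts above 0 (2.87 and 1.72). Mice 16 and 6 held the lowest Chil3 values and had shifts of 1.5 and 1.23. The part of these genes in the Chil3 values was not tested. The 2 arrays labelled mouse 18, averaged here, gave -3.29 and -1.38.

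Marco in forestomach was highest in mice 16, 2 and 15, at 2.20, 1.54 and 1.13, and at or below 0.98 in the others. The fat genes of the same samples shifted by -0.67, 2.61 and 2.65 in these 3 mice, and the part of fat in these values was not tested. Gzma was 1.19 in the forestomach of D1 mouse 6 and at or below 0.02 in the other 17 mice. With the glandular stomach genes as a covariate, 0 members were called at any dose.

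The response of lung minus that of forestomach at D3 was called for 0 of 36 members, against 0.172% of all probes. None had an unadjusted p under 0.05 with limma, as 5% of all probes had, and the Fs-type statistic was not run on this difference. The differences of response ran from -0.66 for S100a9 to 0.78 for S100a8, the 2 chains of calprotectin. Their 95% intervals were -1.63 to 0.31 and -0.21 to 1.78, both of which hold 0.

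**Figure D4:**
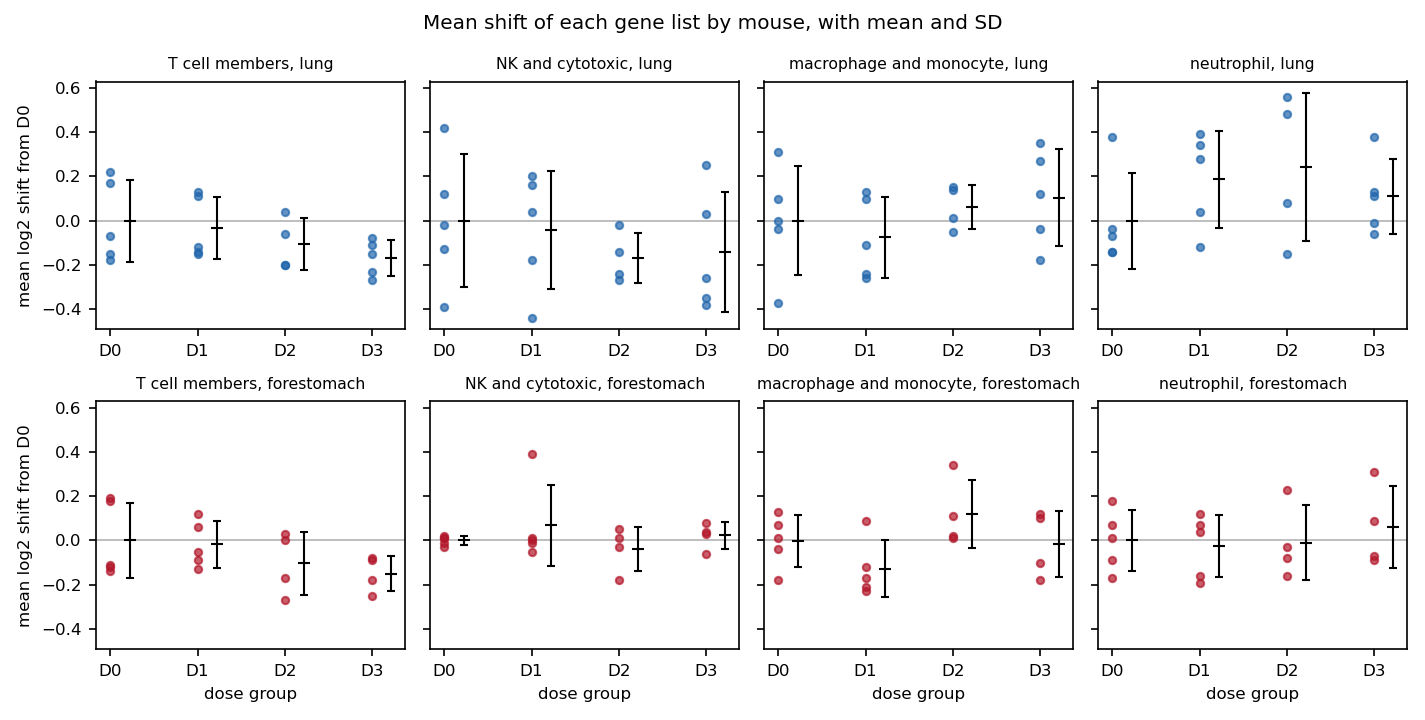
Mean log2 shift from the D0 mean of the 13 T cell, 8 NK and cytotoxic, 10 macrophage and monocyte and 5 neutrophil genes (y axis) by dose group (x axis), in lung (top) and forestomach (bottom). Points are mice and the black marks give mean and SD; the points of every dose group overlap those of D0.

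Shifts were also averaged over each list in each mouse. The lung T cell genes shifted by -0.17 ± 0.08 (SD, n = 5) at D3, with mice from -0.27 to -0.08, where vehicle mice ran from -0.18 to 0.22. Those of forestomach shifted by -0.15 ± 0.08 (SD, n = 4), from -0.25 to -0.08, where vehicle mice ran from -0.14 to 0.19. With median centring 10 of these 13 genes had a positive D3 difference in lung and 11 of 13 in forestomach. The NK and cytotoxic genes of lung shifted by -0.14 ± 0.27 and the macrophage and monocyte genes by 0.10 ± 0.22 at D3. The neutrophil genes shifted by 0.19 ± 0.22 at D1, 0.24 ± 0.34 at D2 (n = 4) and 0.11 ± 0.17 at D3. Vehicle mouse 1 had the highest shift of the vehicle lungs for the T cell (0.22), NK (0.42) and macrophage genes (0.31) and also for B lymphocyte genes (0.42).

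The spread of the members between mice of a dose group was described without a test. Their median within-group SD was 0.26 log2 units in lung, where that of all genes was 0.16, and 0.26 in forestomach, where that of all genes was 0.22. In lung the largest were Marco (0.90), Chil3 (0.74), S100a8 (0.66) and Gzma (0.56), and the smallest were Mpo (0.13), Prf1 and Csf1r (0.14 each). In forestomach the largest after Chil3 were Mrc1 (0.76), Cxcr2 (0.70), Marco and S100a9 (0.69 each).

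Once dose group means were taken out, genes of T cells and of NK cells deviated together in the lungs. In the 19 lungs the shift of the T cell members had a Pearson r of 0.93 and a Spearman rho of 0.89 with that of 18 other T cell genes. The NK and cytotoxic members had r = 0.91 (rho = 0.86) with 12 other genes of that kind, and the neutrophil members r = 0.66 (rho = 0.70) with 12 other neutrophil genes. The macrophage members were less uniform, at r = 0.40 (rho = 0.45) with 18 other macrophage genes. Across cell types, T cell members and B lymphocyte genes had r = 0.67 (rho = 0.65), T cell and NK members r = 0.58 (rho = 0.57), and neutrophil members and red blood cell genes r = 0.53 (rho = 0.52). Against glandular stomach genes T cell members had r = -0.50 (rho = -0.46) and neutrophil members r = 0.41 (rho = 0.41) in the same lungs. These are descriptions over lists measured on the same arrays, which share each array's labelling and normalization.

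**Figure D5:**
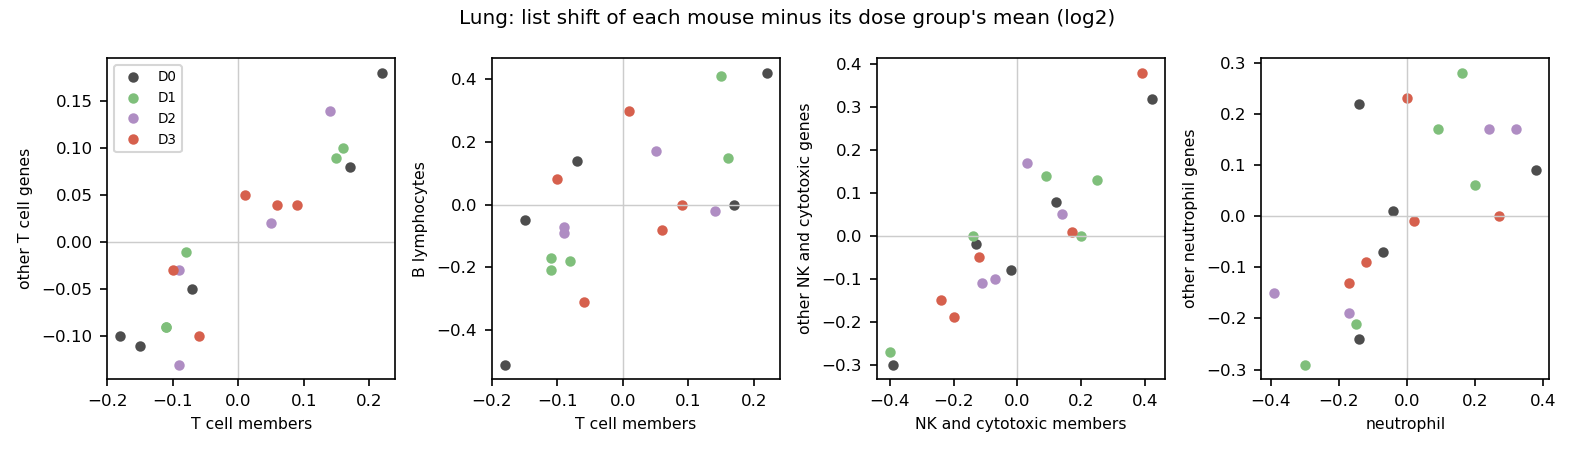
Mean log2 shift of 2 gene lists in each of the 19 lungs after subtraction of the dose group mean (both axes), coloured by dose group, for 4 pairs of lists. T cell members rise with other T cell genes (r = 0.93) and with B lymphocyte genes (r = 0.67), NK and cytotoxic members with other NK genes (r = 0.91), and neutrophil members with other neutrophil genes (r = 0.66).

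In the 18 forestomachs the T cell members again deviated with other T cell genes (r = 0.91, rho = 0.92) and with B lymphocyte genes (r = 0.66, rho = 0.53). The NK and cytotoxic members did not (r = -0.09, rho = -0.09), and 5 of these 8 genes were well above background on 1 or none of the 19 forestomach arrays. Neutrophil members had r = 0.24 (rho = 0.15) and macrophage members r = 0.33 (rho = 0.05) with other genes of their kind. Between the lung and the forestomach of the same mouse, r was 0.12 for T cell, 0.35 for NK, 0.59 for macrophage and 0.17 for neutrophil members over 18 mice (rho = 0.13, 0.49, 0.53 and 0.24). Without the 2 mice farthest from the median the value for macrophage members was 0.45. Both tissues of a mouse lay on the same slide and were scanned on the same day, apart from the second array labelled mouse 18. Slide was not taken out of these values, so mouse and slide cannot be told apart in them.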

How the data were processed

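RNA of lung and forestomach was hybridised by the authors to 2-colour Agilent mouse arrays, tissue in Cy5 and reference in Cy3, without dye swaps. The deposited scanner files (Feature Extraction 10.7.3.1) give median signal intensity per spot and, per the file headers, a log10 ratio of Cy5 over Cy3. The authors' table of log2 values tracked the ratios computed here with slopes from 0.99 to 0.998 and r from 0.995 to 0.999; it and the log10 ratio served as alternatives. Median intensities were normalized by loess within each array without background correction, 372 outlier values were emptied, and spots of a probe were averaged to 55681 probes. Cy5 signal exceeded background clearly for 30.1 to 63.8% of them, depending on the array; precision is limited by the number of arrays. The 2 forestomach arrays labelled mouse 18 were averaged; either alone, or both as separate samples, served as alternatives. Groups were compared with limma 3.58.1 in R 4.3.3, within each tissue for doses and over all 8 groups between tissues; an Fs-type statistic with 100 residual shuffles was a second method, and both were tested on simulated data. Labels name mice, not litters or batches, so p-values measure the spread between these mice. Lung and forestomach of 1 mouse were paired by its number. Their deviations correlated with r from 0.08 to 0.25, median 0.19. Both tissues of a mouse also shared slide and scan day, 1 array labelled mouse 18 aside, so this r could not test the pairing. Genes were named through RefSeq accessions, the 36 members with a matched probe being reported by their brightest probe and other genes by list counts. The members and lists were chosen with earlier results of these data known. Bounds written "at least" set the lung mean Cy5 signal against the lowest signal well above background on forestomach arrays, or the probe's own where higher. Alternatives covered background, scaling, source of the ratio, dim probes, slide, scan day, mouse and leaving out mice.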

Additional observations from a re-analysis of the deposited data

Results flagged for a closer look

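Of 288 groups of 4 or 5 mice (36 genes, both tissues, all dose groups), 20 held 1 mouse set apart from the rest, 7 in lung and 13 in forestomach. The test used (the gap to the nearest mouse over the range of the group) marks about 1 in 20 groups by chance.

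In lung, vehicle mouse 1 was the highest of its group for Cd8b1 (2.42, next 1.02) and Csf1r (1.43, next 1.01), mouse 3 for Cd3e (0.09, next -0.37) and mouse 4 for S100a8 (2.89, next 1.78). Low values were those of Mpo in D1 mouse 8 (-0.55, next -0.21), Cd8a in D3 mouse 19 (0.10, next 0.36) and Prf1 in D3 mouse 16 (-0.44, next -0.33).

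In forestomach, D1 mouse 6 stood apart for 4 genes: it was highest for Gzma (1.19, next -0.07) and Lyz2 (1.42, next 0.30) and lowest for Chil3 (-4.22, next -3.23) and Itgam (-0.46, next 0.12). Among vehicle mice, mouse 2 was highest for Marco (1.54, next 0.14) and lowest for Csf3r (-0.16, next 0.88), mouse 4 lowest for Cd3d (-0.58, next -0.24) and Eomes (-0.41, next 0.00), and mouse 5 highest for Gzma (0.02, next -0.17). At D2, Chil3 was highest in mouse 13 (1.07, next -3.24) and Cd14 lowest in mouse 12 (-2.89, next -2.40). At D3, Klrb1c was highest in mouse 16 (0.27, next 0.10) and Itgax lowest in mouse 17 (-0.74, next -0.37).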

How the results depend on the processing

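Across 14 alternatives the number of members called higher in vehicle lung than in forestomach ran from 18 (median centring in place of loess) to 25 (log ratio of the Feature Extraction software), and it was 20 to 25 when 1 vehicle array was left out. With the mouse as a replicate block, fixed or random, 23 members were called and 0 for the response difference, and the block changed no count of members called. Slide or scan day as a block also gave 23. Of 23 called members, 7 missed the threshold under at least 1 setting, in 17 of 528 values computed, and 0 reversed. In the 6 dose comparisons and the response difference 0 members were called under 168 of 168 settings. The lowest adjusted p was 0.0749 (Csf1r, lung D3, limma) under an alternative, where the main limma fit gave 0.355. Over all probes the count called was 4553 to 13284 between tissues, 0 to 160, 5 to 242 and 16 to 533 in lung at D1, D2 and D3, 0 to 3 in forestomach at D3 and 2 to 204 for the response difference; the causes were not tested. Members dim in forestomach have only a bound there, and doses were tested with 4 or 5 mice a group.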
